A study of Mus musculus with 18 samples.

Results

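This account describes RNA differences between fasted and fed mice in small intestine cells sorted with the Paneth cell gate (CD24+ and c-Kit+). It compares the 2 fasted libraries of that gate, 1 from young and 1 from old C57BL/6 mice, both fasted for 24 hours, with the 1 library of the gate from old mice fed ad libitum whose label is not in dispute. The libraries were chosen by their labels, and make up 3 of the 18 libraries of the series. The series also holds 2 refed Paneth libraries (1 young, 1 old) and 13 libraries labelled as stem cells (Lgr5-GFP high) or progenitors (Lgr5-GFP low) of young and old mice that were fed, fasted or refed. The labels give neither ages in months, the length of refeeding, the sex nor the number of animals behind a library. All groups come from 1 strain. No young fed library of the Paneth gate entered the comparison, so age was carried as a term of the model, estimated from the young and old members of the fasted and refed pairs. A library labelled young fasted stem cells, the second of that name, shares its title and index with another and was left out, because its RNA went against its label.

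Paneth cells sit at the base of the crypt beside the Lgr5+ stem cells. They secrete lysozyme and alpha-defensins that hold bacteria off, and they supply the stem cells with Wnt, Notch and EGF-family signals. In a fast, fatty acids released from fat stores activate the nuclear receptors PPARα and PPARδ, which switch on genes for burning fat in mitochondria and peroxisomes. A fast also lowers insulin and nutrient signalling, which in many cells slows lipid synthesis and growth.

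The 5 Paneth libraries held 10631327 to 15654738 expected counts each, and the 18 libraries 10631327 to 16252750. Lysozyme, other secreted Paneth products and alpha-defensins together took 44.5% to 52.2% of the counts of the 5 Paneth libraries, with 46.9% in the fed one. The same genes took at most 0.307% in the 6 stem cell libraries kept and 42.3% in the library that was left out. The young fasted progenitor library stood at 5.25%, above the other 5 progenitor libraries, which reached at most 1.89%, and its labels disagree both on the cell type and on whether the mice were fed or fasted. Progenitor fasted minus fed values thus rest in part on a library of uncertain diet. By the numbers in the titles, the young fasted Paneth library belongs to an earlier run of numbers than the other 4 Paneth libraries, so old fasted against old fed is the pair within 1 run of numbers. Without the library left out, each combination of age, diet and cell type in the fit holds 1 library. The p-values below thus rest on what the added terms for age and diet leave unexplained, not on a spread between like libraries. Nothing in the labels says that libraries came from separate animals, so that remainder may be partly technical.

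Between the fasted libraries and the fed one, 98 of the 15386 genes tested in the Paneth gate differed (0.637%). The threshold was an adjusted p under 0.05 by edgeR's quasi-likelihood test with Benjamini-Hochberg adjustment. Genes for the transport and oxidation of fatty acids were higher in the fasted libraries, among them Acadl and Cpt1a, as were Pdk4 and Acot1. Genes for serine and one-carbon metabolism and for amino acid uptake were lower, among them Mthfd2 and Slc7a11, as was the desaturase gene Scd2. The antimicrobial products and the niche signals that mark Paneth cells did not pass the test in the fit of 17 libraries. Of the 98 genes, 50 were higher (0.325% of genes tested) and 48 were lower (0.312%) after fasting, and 2056 genes had an unadjusted p under 0.05. In all 98, both fasted libraries lay on the called side of the fed one, as they did for 11121 of all genes tested (72.3%), called or not. Both fasted libraries were more than 1 log2 unit from the fed library in 51 of the 98, while in 12 the young fasted library was within 0.5 of it.

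Because a single library defines the fed state, anything particular to that library enters every fasted minus fed difference. It was the lowest of all 5 Paneth libraries in 41 of the 50 genes called higher and the highest in 42 of the 48 called lower, against 16.8% and 23.8% of all genes tested, an order that the selection of the genes fixes in part. Without the young fasted library 29 genes were called, and without the old fasted library 14. Leaving out the young or the old refed library, which inform the age term, left 36 and 33. Of 37 called genes among those named below, 7 were called whichever of these 4 libraries was left out: Pdk4, Acot1, Acadl, Eci2, Me1, 1300010F03Rik and 2010107G12Rik. With library totals in place of the scaling factors of the trimmed mean of M-values (TMM), the median difference over all genes moved from -0.02 to 0.20 on the log2 scale. The calls then numbered 111 higher and 16 lower, so that lower values are to be read relative to the bulk of genes in the library.

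**Figure D1:**
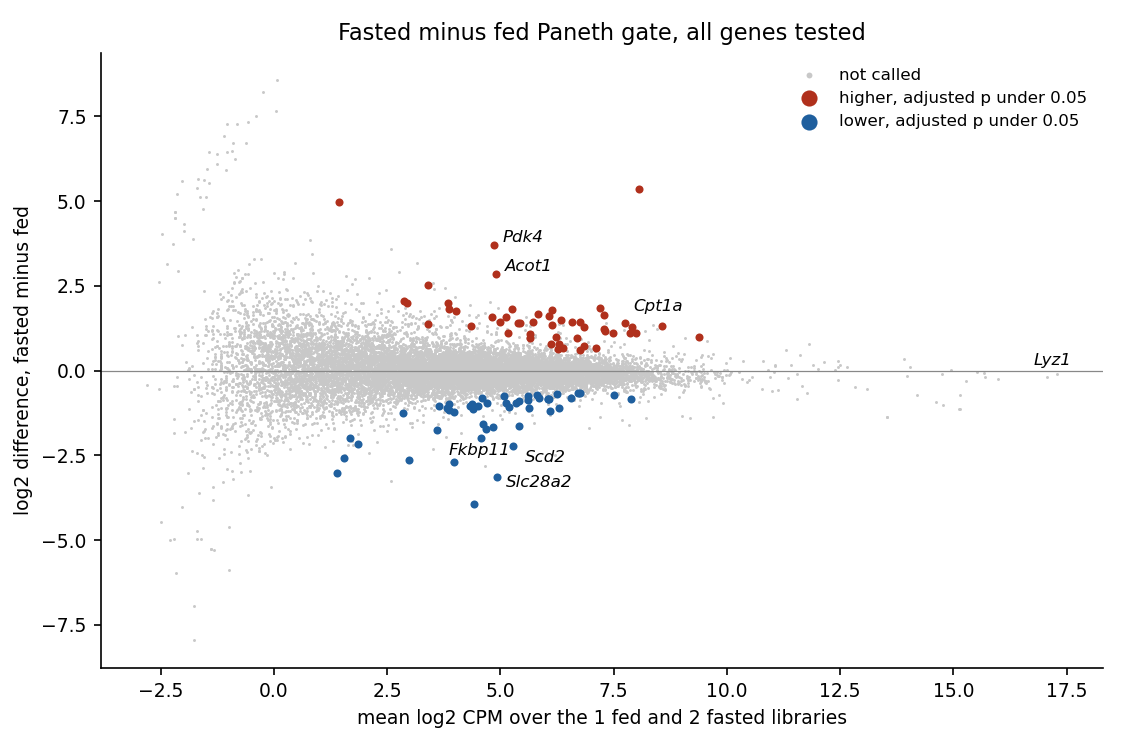
Each point is 1 of the 15386 genes tested; the x axis is the mean log2 CPM over the fed and the 2 fasted Paneth libraries and the y axis is the fitted log2 difference, fasted minus fed. The 50 genes called higher (red) include Pdk4 at 3.70, the 48 called lower (blue) include Scd2 at -2.24, and Lyz1, not called, lies near 0 at the right.

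Pdk4, the kinase that shuts pyruvate out of the citrate cycle, rose from 4.39 CPM (counts relative to a fixed library total, after TMM scaling) in the fed library to 94.5 CPM in the young and 56.9 CPM in the old fasted library. Its log2 difference was 3.70 ± 0.25 (SE), with an adjusted p of 6.71e-05 (edgeR), and the refed libraries, at 3.72 and 2.26 CPM, lay below the fed one. Both fasted libraries were far above the other 3. These are bulk samples, in which fewer cells of a type and less RNA per cell cannot be told apart.

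Fatty acid handling followed the same direction. Cpt1a, which attaches carnitine to fatty acids for entry into mitochondria, was at 112 CPM fed, 320 CPM young fasted and 275 CPM old fasted, a log2 difference of 1.40 ± 0.18 (SE). Acadl, the long-chain acyl-CoA dehydrogenase that takes the first step of beta-oxidation, was at 73.9 CPM fed, 234 CPM young fasted and 223 CPM old fasted, a difference of 1.65 ± 0.16. Acot1, a cytosolic enzyme that frees fatty acids from CoA, was at 7.41 CPM fed, 73.7 CPM young fasted and 48.3 CPM old fasted, a difference of 2.83 ± 0.31. For none of these 3 genes did the fasted and fed libraries overlap, and the adjusted p-values (edgeR) were 0.00719, 0.000904 and 0.00677. Acot1 has near-identical neighbours in its gene family, and the split of reads between them by the counting is uncertain. Its neighbour Acot2 had a log2 difference of 2.43 and an adjusted p of 0.0895 (edgeR), just above the threshold.

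Of the 25 genes of mitochondrial fatty acid oxidation, 7 were called higher, none was called lower and 14 had an unadjusted p under 0.05. Of all 15386 genes tested, 0.325% were called higher and 2056 had an unadjusted p under 0.05. The median log2 difference of the list was 0.49 beside -0.02 over all genes tested, and 5 of the 25 differences were negative. Both fasted libraries were above the fed one in 20 of the 25, against 33.2% of all genes tested. The 7 were Cpt1a and Acadl, both subunits of the trifunctional protein (Hadha, 1.12 ± 0.18, and Hadhb, 1.10 ± 0.18), the thiolase Acaa2 (1.16), the enoyl-CoA isomerase Eci2 (1.79) and Etfdh (0.68), which passes electrons from the pathway to ubiquinone. Hadha was at 147 CPM fed, 365 CPM young fasted and 309 CPM old fasted, and Eci2 at 30.3, 126 and 91.8 CPM in the same order. In both, each fasted library was more than 1 log2 unit above the fed one. Hadha and Hadhb were no longer called when any 1 of the other 4 Paneth libraries was left out, with the direction unchanged, while Eci2 kept its call in each of those fits.

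Among 22 targets of the PPAR receptors, 5 were called higher, against 0.325% of all genes tested, and none lower, with a median of 0.83. Both fasted libraries were above the fed one in 19, against 33.2% of all genes tested. The called targets were Pdk4, Me1, Acot1, Cpt1a and Pex11a. Me1, which makes NADPH from malate, was at 4.80 CPM fed, 38.5 CPM young fasted and 16.1 CPM old fasted, a difference of 1.81 ± 0.20 (SE). The old fasted library lay closer to the fed one for Me1 than the young fasted library did, and the refed libraries were at 16.3 CPM (young) and 8.10 CPM (old). Angptl4, a secreted inhibitor of lipoprotein lipase, was at 2.61 CPM fed, 33.1 CPM young fasted and 16.7 CPM old fasted, yet did not pass the test (2.41 ± 0.57, adjusted p = 0.132, edgeR). The droplet-coat gene Plin2 (0.77, adjusted p = 0.0689) and the omega-hydroxylase Cyp4a10 (3.58, adjusted p = 0.299) likewise missed the threshold in edgeR. Without the young or the old fasted library, 4 and 3 of the 22 PPAR targets and 3 and 2 of the 25 oxidation genes were still called higher.

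**Figure D2:**
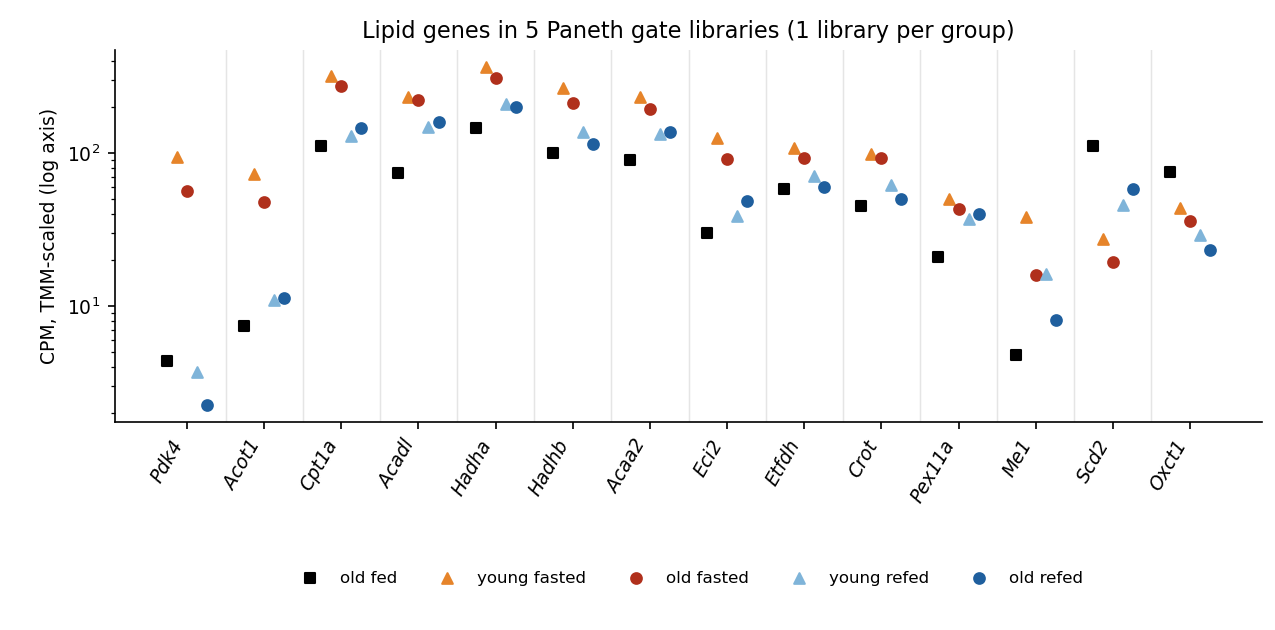
CPM (TMM-scaled, log axis) of 14 lipid and ketone genes in each of the 5 Paneth gate libraries, 1 point per library. For the first 12 genes both fasted libraries (orange, red) lie above the fed one (black), as at Pdk4 with 56.9 and 94.5 CPM against 4.39 CPM, and for Scd2 and Oxct1 both lie below it.

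In peroxisomes, where very long and branched fatty acids are shortened, 2 of 18 genes were called higher and none lower, with a median of 0.43. Of all genes tested, 0.325% were called higher. Crot, which makes carnitine esters of the shortened chains, was at 45.3 CPM fed, 99.6 CPM young fasted and 93.0 CPM old fasted (0.99 ± 0.13, adjusted p = 0.00769, edgeR). Pex11a, which takes part in peroxisome division, was at 21.0, 50.1 and 43.0 CPM (1.12 ± 0.20, adjusted p = 0.0294, edgeR). For both genes the fasted libraries lay close together and well above the fed one. Outside the lists, the peroxisomal membrane protein gene Pxmp4 (15.8 CPM fed, 66.9 and 52.4 CPM fasted) rose by 1.82 on the log2 scale. Pex11a and Pxmp4 lost their calls without any 1 of the other 4 Paneth libraries. Prex1, an activator of the small GTPase Rac, rose from 3.15 CPM to 20.8 and 16.8 CPM (2.52 ± 0.36, adjusted p = 0.00991, edgeR). The gene 1300010F03Rik rose from 66.9 to 211 and 228 CPM (1.85 ± 0.14, adjusted p = 6.71e-05, edgeR), and in the refed libraries it was as high, at 201 and 267 CPM.

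The core of many nuclear receptor sites reads AGGTCA. RefSeq promoters (GRCm38.p6, 250 bases before to 50 after the start) were found for 36 genes called higher and 24 called lower. On either strand, AGGTCA occurred in 2 of the 36 (Cpt1a and 1700110K17Rik) and 1 of the 24 (Iqgap3), against 16.3% of all 32851 promoters. These shares describe short windows only and say nothing of sites elsewhere.

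Single genes of ketone use and of lipid synthesis were lower. Oxct1, the enzyme with which tissues burn ketone bodies, was at 76.0 CPM fed, 43.7 CPM young fasted and 36.0 CPM old fasted. Both fasted libraries were below the fed one, with a log2 difference of -1.09 ± 0.13 (SE) and an adjusted p of 0.0052 (edgeR). The refed libraries were lower still, at 29.4 and 23.2 CPM. In a list of 5 ketone body genes, Oxct1 was the 1 that was called. Bdh1, which interconverts the 2 ketone bodies, did not pass the test (114.7 CPM fed, 87.7 and 79.1 CPM fasted, adjusted p = 0.277, edgeR).

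Scd2, a stearoyl-CoA desaturase that makes monounsaturated fatty acids, was at 111 CPM fed, 27.5 CPM young fasted and 19.5 CPM old fasted. Neither fasted library came near the fed one (-2.24 ± 0.29, adjusted p = 0.0165, edgeR), and the refed libraries lay between at 46.1 and 58.7 CPM. Scd2 was the 1 gene of 13 in fatty acid synthesis to be called lower, beside 0.312% of all genes tested. The list median was -0.23. Fasn, the fatty acid synthase, was at 180 CPM fed against 123 and 127 CPM fasted and did not pass the test (adjusted p = 0.159, edgeR). In a list of 21 cholesterol genes the median was -0.32 and none was called by edgeR or DESeq2. In edgeR 7 had an unadjusted p under 0.05, beside 2056 of all 15386 genes tested. With the 5 Paneth libraries alone edgeR called Ebp (-0.63) and Fdps (-0.72) of that list lower. Without the old fasted library the calls of Scd2 and Oxct1 were lost.

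Genes of amino acid supply were lower in the fasted libraries. Of 26 genes in the amino acid response list, most are known targets of the transcription factor ATF4. In that list 5 were called lower, none was called higher and 21 had an unadjusted p under 0.05. Of all 15386 genes tested, 0.312% were called lower and 2056 had an unadjusted p under 0.05. The list median was -0.76, and both fasted libraries were below the fed one in 24 of the 26, against 39% of all genes tested. Mthfd2, the mitochondrial folate enzyme, was at 135 CPM fed, 55.7 CPM young fasted and 63.6 CPM old fasted (-1.10 ± 0.14, adjusted p = 0.00677, edgeR). Shmt2, its partner that splits serine into glycine and a one-carbon unit, was at 103, 48.5 and 61.6 CPM in the same order (-0.84 ± 0.15, adjusted p = 0.0288, edgeR). Psph, which completes serine synthesis, was at 21.8, 11.98 and 10.7 CPM (-1.09 ± 0.21, adjusted p = 0.0426, edgeR). In all 3 the fasted libraries lay together and below the fed one. In the young and old refed libraries Mthfd2 was at 92.7 and 104 CPM, Shmt2 at 59.5 and 56.3 CPM, and Psph at 11.7 and 8.90 CPM.

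Both called transporters of the list work at the cell surface. Slc7a11, which imports cystine in exchange for glutamate, was at 54.6 CPM fed, 35.7 CPM young fasted and 25.2 CPM old fasted (-1.07 ± 0.14, adjusted p = 0.00725, edgeR). Slc7a5, the importer of leucine and other large neutral amino acids, was at 97.5, 54.5 and 54.6 CPM (-0.84 ± 0.14, adjusted p = 0.0269, edgeR). The young fasted library lay between the fed and the old fasted one for Slc7a11, while for Slc7a5 the fasted libraries were alike. In the young and old refed libraries Slc7a11 was lower still, at 23.0 and 18.6 CPM. It was called higher in the fasted than in the refed libraries (0.54, adjusted p = 0.00769, edgeR). Slc7a5 was at 60.7 and 60.6 CPM in the refed libraries, nearer to the fasted ones than to the fed one. Outside the list, the tRNA synthetase genes Vars (253 CPM fed, 154 and 155 CPM fasted) and Iars (150 CPM fed, 87.7 and 94.3 CPM fasted) also fell. Their log2 differences were -0.71 and -0.67. These 2 genes, like others said to lie outside the lists, were picked after their values were seen.

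Other members of the list differed as much without passing the test. Chac1, which degrades glutathione, was at 33.1 CPM fed, 1.13 CPM young fasted and 4.97 CPM old fasted (adjusted p = 0.194, edgeR). Psat1, a serine synthesis enzyme, was at 114.8 CPM fed against 28.8 and 46.9 CPM fasted (adjusted p = 0.209), and Asns, asparagine synthetase, at 270.2 CPM against 133 and 167 CPM (adjusted p = 0.164). Atf4 itself was at 287 CPM fed against 184 and 182 CPM fasted (-0.62, adjusted p = 0.0788). The fed library was the highest of all 5 Paneth libraries in 21 of the 26 genes, against 23.8% of all genes tested. Against the refed libraries the list median was -0.11, with 7 of 26 genes called lower in the fasted libraries and 1 higher. Of all genes tested, 7.32% were called lower and 9.18% higher in that comparison. All 5 calls were lost without the old fasted library, 2 members were called without the young fasted one, and 2 with library totals in place of scaling factors, where the median was -0.53.

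**Figure D3:**
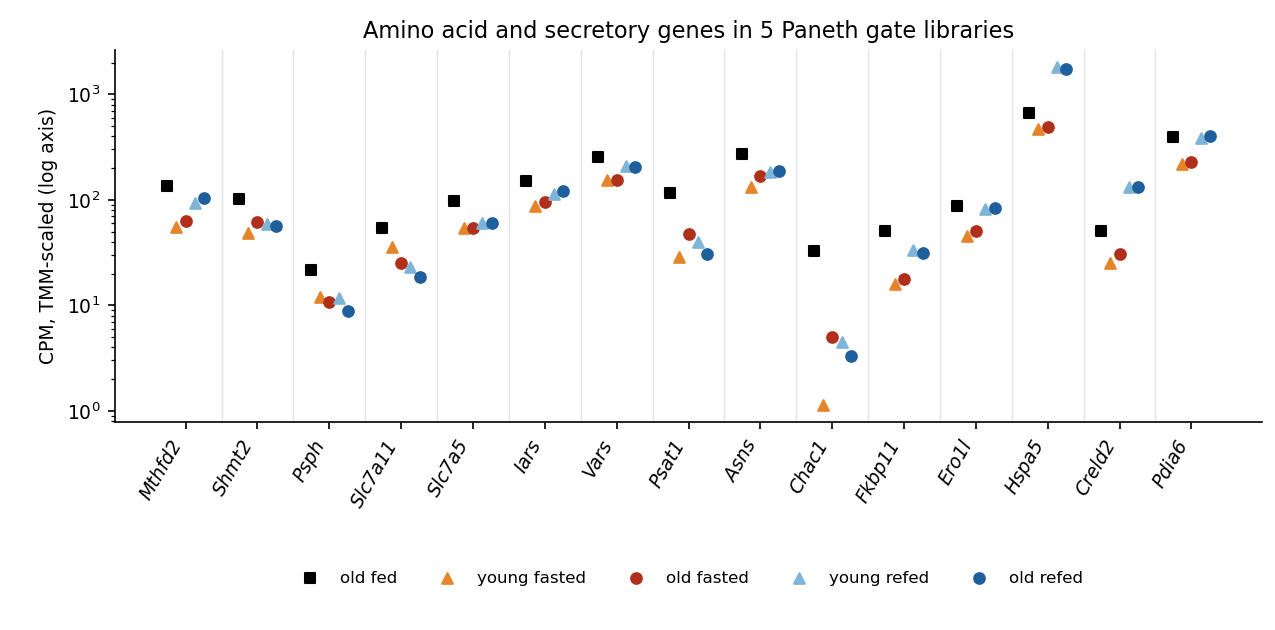
CPM (TMM-scaled, log axis) of 10 amino acid genes (left) and 5 secretory pathway genes (right) in each of the 5 Paneth gate libraries, 1 point per library. The fed library (black) is above both fasted ones in all 15, and for Hspa5 and Creld2 the refed libraries (blue) lie above all others.

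ATF4 pairs with C/EBP factors on a composite element whose letters TGATGCAA occurred, on either strand, in 294 of 32851 promoters (0.895%). It occurred in 2 of the 24 matched genes called lower, Slc7a11 and Iars, and in 1 of the 36 called higher, Avil. The promoters of Slc7a11 (chr3:50443564-50443863, minus strand) and Iars (chr13:49681880-49682179, plus strand) are printed because they belong to genes called lower and hold the element. They are RefSeq sequences of GRCm38.p6, 5′ to 3′ along the gene, with the matches in capitals. Slc7a11 holds 2 matches on opposite strands and Iars 1, and a match is a description of letters, chosen after the calls were known, not a site shown to be bound.
Slc7a11: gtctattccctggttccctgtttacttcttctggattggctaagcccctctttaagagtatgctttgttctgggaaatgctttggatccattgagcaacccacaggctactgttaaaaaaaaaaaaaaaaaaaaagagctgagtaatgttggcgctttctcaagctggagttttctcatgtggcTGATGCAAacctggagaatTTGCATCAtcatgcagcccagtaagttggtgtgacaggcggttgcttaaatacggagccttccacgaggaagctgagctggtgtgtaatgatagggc
Iars: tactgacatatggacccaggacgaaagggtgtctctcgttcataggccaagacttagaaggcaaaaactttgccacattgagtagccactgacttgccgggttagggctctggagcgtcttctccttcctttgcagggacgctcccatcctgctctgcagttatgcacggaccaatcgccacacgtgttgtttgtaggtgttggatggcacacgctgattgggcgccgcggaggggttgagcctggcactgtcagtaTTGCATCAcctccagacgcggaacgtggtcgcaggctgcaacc

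In the secretory machinery 1 listed gene was called lower than in the fed library. Fkbp11, a prolyl isomerase of the endoplasmic reticulum found in secretory cells, was at 51.0 CPM fed, 16.0 CPM young fasted and 17.7 CPM old fasted (-1.59 ± 0.20, adjusted p = 0.00677, edgeR). The fasted libraries were nearly alike, and the refed ones lay between at 33.1 and 31.5 CPM. Fkbp11 was the 1 of 34 secretory pathway genes to be called lower, beside 0.312% of all genes tested, with a list median of -0.31. Both fasted libraries were below the fed one in 32 of the 34, against 39% of all genes tested. Ero1l, which reoxidises the disulfide-forming enzymes and stands outside that list, fell from 86.7 to 45.0 and 50.3 CPM (-0.82, adjusted p = 0.0147, edgeR). None of 26 unfolded protein response genes was called by edgeR and 1 by DESeq2, while 10 had an unadjusted p under 0.05 in edgeR. Of all 15386 genes tested, 2056 had an unadjusted p under 0.05. The unfolded protein response median was -0.33, with both fasted libraries below the fed one in 24, against 39% of all genes tested. With the 5 Paneth libraries alone 10 of 34 secretory and 5 of 26 unfolded protein response genes were called lower, against 1.59% of the 12841 genes tested in that fit. With no expression filter 10 and 5 were called lower as well, in a fit that called many more genes than the main one. The share of 1.59% does not apply to that fit. With library totals in place of scaling factors these medians came to -0.08 for the secretory list and -0.10 for the unfolded protein response.

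The same fasted libraries can be set against the 2 refed ones, a comparison that shares the fasted libraries with the one above. It called 2540 genes (16.5%), 1413 higher in the fasted libraries (9.18%) and 1127 lower (7.32%). Of the unfolded protein response genes 18 of 26 were lower in the fasted libraries (median -0.87), as were 23 of 34 secretory genes (median -0.47) and 13 of 13 heat shock genes (median -1.73). Hspa5, the main chaperone of the endoplasmic reticulum, was at 470 and 494 CPM in the fasted and 1803 and 1722 CPM in the refed libraries, with 667 CPM in the fed one. The fed library thus lay nearer to the fasted ones for Hspa5, and the refed libraries stood apart. Hspa8, a cytosolic chaperone, was at 962 CPM fed, 829 and 889 CPM fasted, and 2996 and 2692 CPM refed. Of the fat genes, 16 of 25 for mitochondrial oxidation and 10 of 22 PPAR targets were higher in the fasted than in the refed libraries, with none lower. With library totals in place of scaling factors the split was 3319 higher and 387 lower.

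Genes of cell division stood highest in the fed library. Birc5, a component of the chromosomal passenger complex, was at 33.5 CPM fed, 20.1 CPM young fasted and 17.4 CPM old fasted (-1.05 ± 0.20, adjusted p = 0.0424, edgeR). Cdc20, the activator of the anaphase-promoting complex, was at 37.9, 24.4 and 18.9 CPM (-0.97 ± 0.19, adjusted p = 0.0435, edgeR). In both the fasted libraries were below the fed one, and the refed libraries were lower again, at 10.1 and 6.11 CPM for Birc5 and 10.8 and 9.30 CPM for Cdc20. These were the 2 of 25 mitosis genes to be called lower (median -0.56), beside 0.312% of all genes tested. Both lost their calls when any 1 of the other 4 Paneth libraries was left out or when library totals replaced the scaling factors. None of 30 DNA replication genes was called by edgeR or DESeq2 (median -0.44). In edgeR 17 had an unadjusted p under 0.05, as did 2056 of all 15386 genes tested. Mcm5 was called lower with the 5 Paneth libraries alone (-0.69).

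The proliferation marker Mki67 was at 180 CPM fed against 139 and 135 CPM fasted and did not pass the test (-0.38, adjusted p = 0.293, edgeR). Ccnd1, the cyclin of the G1 phase, which stands outside both lists, fell from 92.7 to 58.3 and 53.7 CPM (-0.83, adjusted p = 0.0141, edgeR). Against the refed libraries the direction was the opposite, with 24 of 25 mitosis and 20 of 30 replication genes higher in the fasted libraries (medians 1.11 and 0.61). Markers of the dividing stem cells took 0.175% of counts in the fed library, 0.156% and 0.155% in the young and old fasted ones and 0.103% and 0.0957% in the refed ones. In the stem cell libraries the same 18 genes took 1.03% to 1.56%. The part of such cells in the division genes was not tested.

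The genes that make a Paneth cell recognisable did not pass the test in the fit of 17 libraries, while some were called lower with the 5 Paneth libraries alone. Lyz1, the Paneth lysozyme, was at 166560 CPM fed, 115291 CPM young fasted and 135754 CPM old fasted, with the refed libraries at 135064 and 214743 CPM. The refed pair spread more widely than the fasted and fed libraries differed (-0.18 ± 0.91, adjusted p = 0.957, edgeR). The protease Mmp7, which activates the defensins, was at 4056 CPM fed and 4890 and 4674 CPM fasted (0.26 ± 0.94), and the antimicrobial ribonuclease Ang4 at 13006 CPM fed and 17610 and 16067 CPM fasted (0.34 ± 0.58). The standard errors are large in the fit of 17 libraries, whose spread comes also from stem cells and progenitors. With the 5 Paneth libraries alone the errors were 0.34 for Lyz1, 0.19 for Mmp7 and 0.23 for Ang4, and these 3 genes were still not called. The microbe-binding lectin Itln1 had a difference of -0.05 ± 0.85.

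In the fit of 17 libraries none of 15 Paneth products was called by edgeR or DESeq2 (median -0.18), and none of 18 alpha-defensins (median -0.63). At an unadjusted p under 0.05 edgeR gave 0 products and 2 defensins. With the 5 Paneth libraries alone edgeR called 5 defensins lower, Defa23 (-1.68), Gm15292 (-0.81), Gm15293 (-0.71), Gm15299 (-0.91) and Gm15315 (-0.84), and 1 product, the lectin Reg3g (-0.72). With the 15 libraries of undisputed label Defa23 was called lower (-1.69, adjusted p = 0.0482, edgeR). The fit of the 5 Paneth libraries alone, with 1 residual degree of freedom, called 1.59% of its 12841 genes lower. For the defensins both fasted libraries were below the fed one in 16 of 18, against 39% of all genes tested. These genes are near-identical copies of each other, so the values of single members are uncertain. Summed before scaling, the defensins took 33.4% of counts in the fed library, 31.8% and 30.5% in the young and old fasted ones, and 34.1% and 35.4% in the refed ones. The products took 13.6%, 13.2% and 13.99% in the fed and the 2 fasted libraries. Before scaling, the sums thus were close to each other in the fed and the fasted libraries. They are on another scale than the fitted differences, whose defensin median was -0.63, or -0.41 with library totals in place of scaling factors.

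The signals that Paneth cells send to stem cells were not called either (0 of 10 tested by edgeR or DESeq2, median 0.07, 1 at an unadjusted p under 0.05). Wnt3, the main Wnt of the Paneth cell, was at 159 CPM fed, 135 CPM young fasted and 182 CPM old fasted, so that the fed library lay between the fasted ones. Egf was at 32.4, 33.3 and 35.8 CPM and the Notch ligand Dll4 at 60.9, 54.7 and 68.3 CPM in the same order, each within a narrow range. Bst1, an ectoenzyme that makes cyclic ADP ribose and that has been tied to the Paneth cell response to calorie restriction, was at 18.8 CPM fed, 29.0 CPM young fasted and 12.9 CPM old fasted. The fasted libraries thus lay on either side of the fed one (-0.69 ± 0.59, adjusted p = 0.679, edgeR), and the sign turned to 0.17 in a fit with no age term. The secreted Wnt inhibitor Notum was at 13.99 CPM fed, 8.36 CPM young fasted and 33.9 CPM old fasted (1.11 ± 0.36, adjusted p = 0.208, edgeR), with the fasted libraries again on either side.

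Regulators of Paneth cell fate and the surface proteins used for sorting were not called by edgeR or DESeq2 (0 of 16, median -0.17), and none had an unadjusted p under 0.05 in the fit of 17 libraries. With the 5 Paneth libraries alone 1 was called lower, the secretory fate factor Atoh1 (-0.61, adjusted p = 0.0197, edgeR). Cd24a was at 1938 CPM fed and 2471 and 2043 CPM fasted, and Kit at 274 CPM fed and 305 and 343 CPM fasted. The fate factor Sox9 stood at 195 CPM fed and 220 and 206 CPM fasted, and the secretory factor Xbp1 at 384 CPM fed and 287 and 312 CPM fasted. All 4 had adjusted p-values of 0.582 or more (edgeR).

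Markers of tuft cells, the chemosensory cells of the gut lining, were higher in the fasted libraries. Of 14 markers described here, 3 were called higher, against 0.325% of all genes tested, and none lower (median 1.17). At an unadjusted p under 0.05 edgeR gave 11, beside 2056 of all 15386 genes tested. Both fasted libraries were above the fed one in all 14, against 33.2% of all genes tested. Sh2d6, a tuft cell signalling adaptor, was at 45.1 CPM fed, 235 CPM young fasted and 120 CPM old fasted (1.45 ± 0.20, adjusted p = 0.00769, edgeR). Avil, which bundles actin in the tuft, was at 50.6, 258 and 117 CPM (1.28 ± 0.19, adjusted p = 0.0144, edgeR). Alox5, which makes leukotrienes, was at 16.6, 108 and 39.8 CPM (1.40 ± 0.26, adjusted p = 0.0356, edgeR). In each the young fasted library was the highest of all 5 Paneth libraries and the old fasted one lay between it and the fed one.

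The channel gene Trpm5 (74.2 CPM fed, 356 and 162 CPM fasted, adjusted p = 0.0509) and Dclk1 (68.9 CPM fed, 347 and 174 CPM fasted, adjusted p = 0.0713) came close to the threshold in edgeR. Summed over 15 tuft markers and before scaling, the share of counts was 0.0221% in the fed library, 0.123% in the young fasted and 0.0600% in the old fasted one. The refed libraries held 0.0409% (young) and 0.0218% (old), so the young library was above the old one in the fasted and in the refed pair. All 3 calls were lost without the young fasted library, without the old fasted library and with no age term, while the median was 1.11, 1.44 and 1.79. Against the refed libraries 14 of 14 tuft markers were higher in the fasted ones (median 1.38). In progenitors the fasted minus fed median of these markers was 1.86, resting in part on the library of uncertain cell type and diet. In stem cells it was -0.02. The progenitor medians were 2.82 for alpha-defensins and 1.73 for Paneth products. Whether the tuft rise in progenitors came with cells of the Paneth gate was not tested. Genes outside the list that were called higher with the same order of libraries included Lrmp, Matk, Inpp5d, Spib, Pik3cg, Tspan6, Skap2 and Ccnj, the last at 25.9 CPM fed and 156 and 74.6 CPM fasted. The order is not particular to tuft markers or these genes, since Pdk4, Acot1, Me1 and Cpt1a had it too. Whether more tuft cells fell in the gate or more tuft RNA was present per cell cannot be told apart.

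Markers of other cell types that the gate could hold were not called by edgeR or DESeq2 in the fit of 17 libraries. The goblet marker Agr2 (-1.38) and the stem cell marker Olfm4 (-0.96) were called lower, and the immune marker Ptprc (1.28) and the stem cell marker Nkd1 (0.72) higher, with the 5 Paneth libraries alone. No enteroendocrine, enterocyte or goblet marker had an unadjusted p under 0.05 in edgeR, and 3 of the 7 immune markers tested had one. Enteroendocrine markers took 0.163% of counts in the fed library, 0.249% in the young fasted and 0.384% in the old fasted one (0 of 22 called, median 0.65). Enterocyte markers took 0.320%, 0.556% and 0.363% (0 of 24 called, median -0.05), and goblet cell markers 0.754%, 0.780% and 0.740% (0 of 16 called). Before scaling, enteroendocrine and enterocyte sums were thus above the fed library in both fasted ones, by different amounts. After scaling, both fasted libraries were above the fed one in 5 of 22 enteroendocrine and 13 of 24 enterocyte markers. The share of all genes tested was 33.2%. The median enteroendocrine marker differed from the fed library by -0.19 log2 CPM in the young fasted and 0.93 in the old fasted library. Immune markers stayed at 0.0113%, 0.0112% and 0.0106%, with 11, 5 and 7 of their 22 genes at 0. Ptprc, the leukocyte marker CD45 that tuft cells can also carry, was at 8.23 CPM fed and 60.1 and 21.6 CPM fasted (1.26 ± 0.37, adjusted p = 0.172, edgeR). Mast cells also carry c-Kit, and of their 11 markers 8, 8 and 7 were at 0 in the fed, young fasted and old fasted library. Mitochondrially encoded genes took 2.19% of counts in the fed library and 3.14% and 2.88% in the young and old fasted ones (0 of 13 called). The part of these shares in the genes called was not tested.

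**Figure D4:**
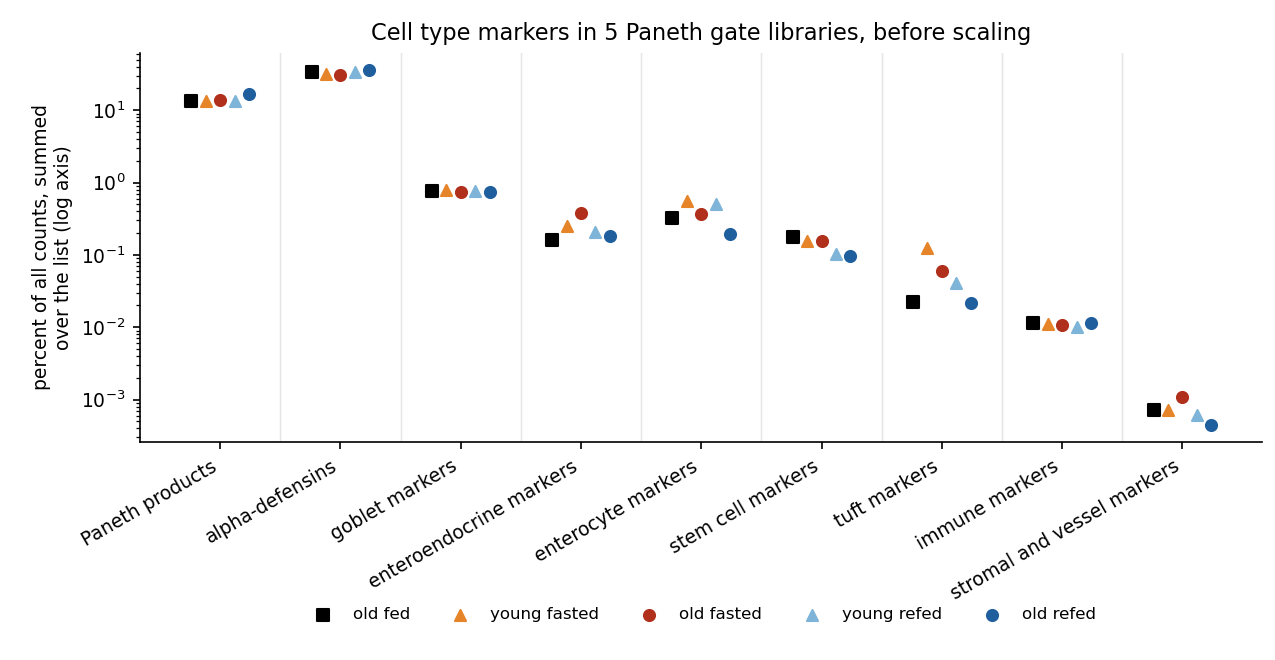
Share of all counts (percent, log axis) summed over the markers of 9 gene lists in each of the 5 Paneth gate libraries, 1 point per library. Paneth products and alpha-defensins hold 13.2% to 35.4% in every library, and tuft markers run from 0.0218% in the old refed to 0.123% in the young fasted library.

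Some of the genes called lower rest on the age term. Slc28a2, a nucleoside transporter, was at 63.6 CPM in the old fed library, 51.6 CPM in the young fasted and 8.34 CPM in the old fasted one. The refed libraries repeated the age difference, at 61.1 CPM (young) and 6.51 CPM (old). The old fed library was therefore at the level of the young libraries, and the fitted difference of -3.13 ± 0.37 (adjusted p = 0.00897, edgeR) fell to -1.06 with an adjusted p of 0.812 in a fit with no age term. Gm16233 (29.6 CPM old fed, 24.5 CPM young fasted, 5.12 CPM old fasted) and 2010109I03Rik (61.4, 33.1 and 4.68 CPM) had the same order of libraries. Their fitted differences of -2.71 and -3.95 became -0.97 and -1.67 with no age term, and neither was then called. Lama3, a laminin chain outside the lists, was at 14.3, 12.3 and 2.63 CPM. For Slc28a2, Gm16233 and Lama3 the young fasted library lay within 0.5 log2 units of the fed one.

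The remaining largest differences among genes called lower were spread over unlike functions. Ces1c, a carboxylesterase, was at 99.7 CPM fed and 22.4 and 33.8 CPM fasted (-1.64), and Tubb2a, a beta-tubulin, at 24.3 CPM fed and 15.8 and 9.95 CPM fasted (-1.23). Lgals12, a galectin linked to lipid droplets, was at 37.0 CPM fed and 13.3 and 18.3 CPM fasted (-1.13), and Lsmd1 at 22.4 CPM fed and 12.5 and 10.7 CPM fasted (-1.16). In each gene both fasted libraries were below the fed one. 2010107G12Rik (-1.71) and Rpl27-ps3 (-1.67) also fell, the latter a pseudogene whose reads may belong to its parent gene. Among genes called higher, Pnliprp1, a relative of pancreatic lipase, was at 26.7 CPM fed and 85.2 and 81.6 CPM fasted (1.65), and 1700110K17Rik at 7.13 CPM fed and 22.9 and 24.9 CPM fasted (1.76). Of these 8 genes, 2010107G12Rik alone kept its call without the old fasted library, and it lost it with no age term.

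Many gene lists tied to nutrients held no call, beside a called share of 0.637% over all genes tested. At that share, lists of these sizes can easily hold none. Glycolysis (0 of 18, median -0.12), the citrate cycle (0 of 16, -0.27), the respiratory chain (0 of 21, -0.32) and gluconeogenesis (0 of 7, 0.41) had no call in either direction by edgeR. At an unadjusted p under 0.05 edgeR gave 2, 7, 7 and 3 genes of these lists, beside 2056 of all 15386 genes tested. DESeq2 called 1, in gluconeogenesis. Pck1, the entry enzyme of gluconeogenesis, was at 24.8 CPM fed and 88.8 and 49.6 CPM fasted without passing the test (adjusted p = 0.463, edgeR). Ribosomal proteins (0 of 75, median -0.25), autophagy and lysosome genes (0 of 20, 0.02) and genes under insulin and FOXO control (0 of 16, -0.13) were not called by edgeR or DESeq2, with 6, 2 and 3 genes at an unadjusted p under 0.05. Txnip, a glucose-responsive inhibitor of glucose uptake, was at 367 CPM fed and 467 and 391 CPM fasted, but 227 and 219 CPM in the refed libraries. Ddit4, an inhibitor of the growth kinase mTORC1, was at 77.9 CPM fed and 80.6 and 98.6 CPM fasted, and Odc1, the first enzyme of polyamine synthesis, at 137 CPM fed and 111 and 99.5 CPM fasted. Neither passed the test. Interferon response genes had a median of 0.33 (0 of 23 called) and genes of MHC class II one of -0.75 (0 of 7 called by edgeR, 3 by DESeq2), with 5 and 4 genes at an unadjusted p under 0.05. Cd74, the invariant chain, was at 456 CPM fed and 234 and 265 CPM fasted (adjusted p = 0.0713, edgeR). Cd74 was called lower (-0.89), Pck1 higher (0.98) and Eif4ebp1, of the insulin and FOXO list, lower (-0.75) by edgeR with the 5 Paneth libraries alone.

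**Figure D5:**
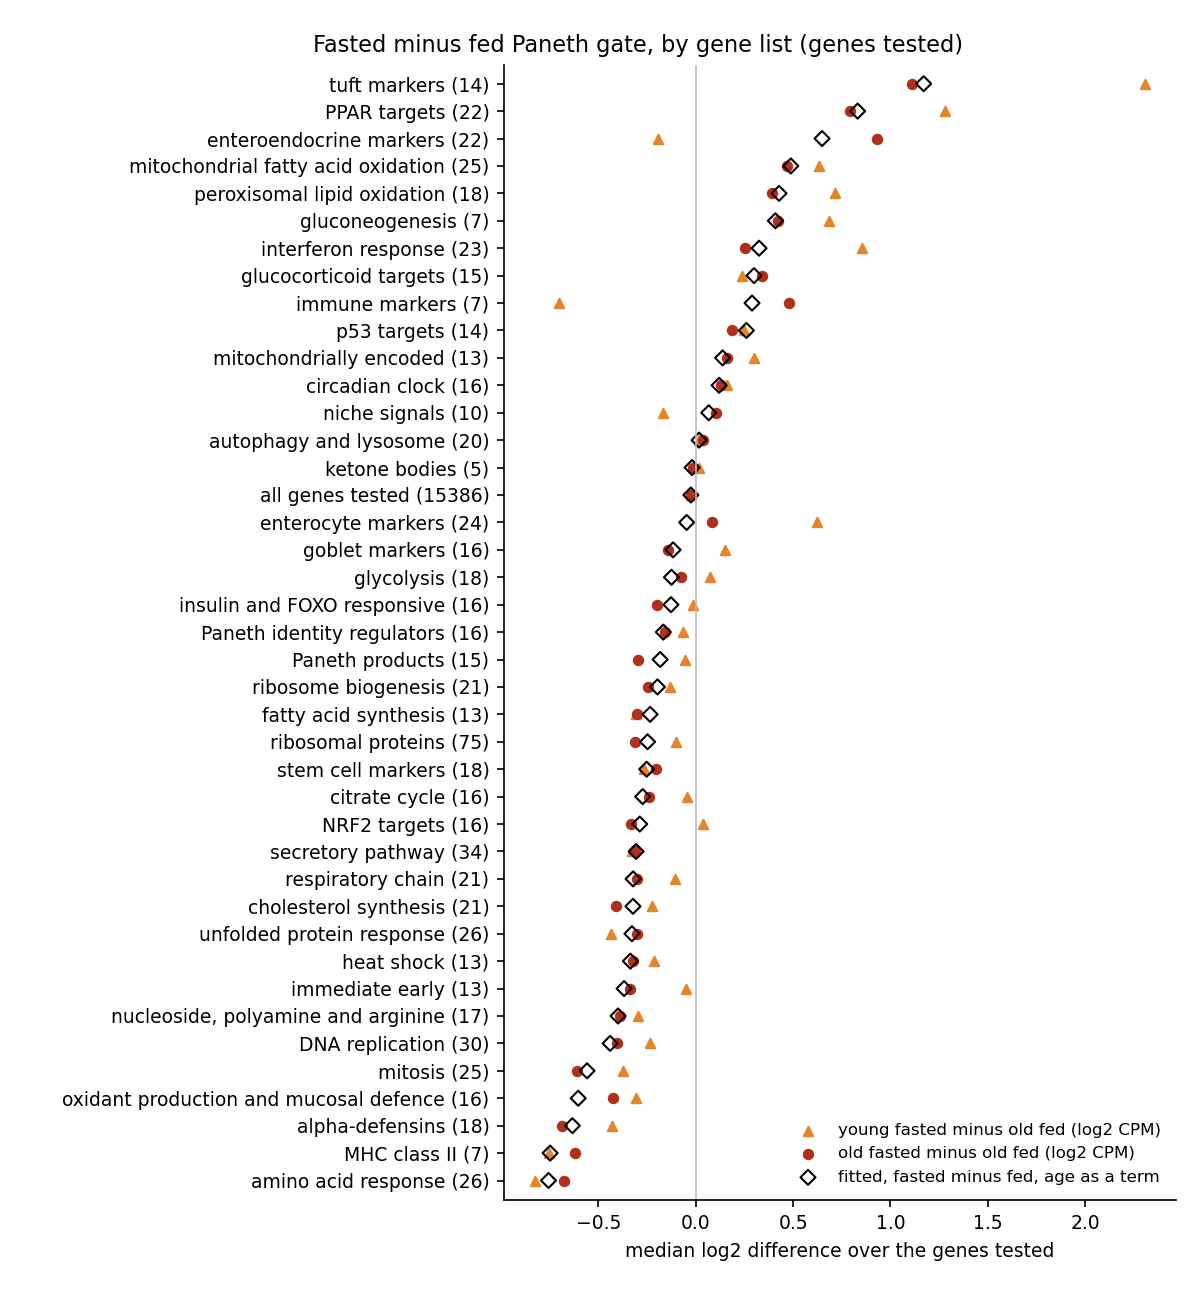
Median log2 difference over the tested genes of each list with 5 or more (number in brackets), for the fitted fasted minus fed value (diamond), the young fasted library minus the fed one (triangle) and the old fasted library minus the fed one (circle). Tuft markers, PPAR targets and fatty acid oxidation lie right of the median of all genes (-0.02), and the amino acid response lies farthest left at -0.76.

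To ask whether Paneth cells respond to the fast in their own way, the fasted minus fed difference of the Paneth gate was tested against that of the other populations. Against stem cells 4 of 15386 genes differed (0.026%), 2 with a higher and 2 with a lower response in the Paneth gate (0.013% each), and against progenitors 1 (0.0065%), at an adjusted p under 0.05 by edgeR's quasi-likelihood test. Fkbp11 was the 1 gene with a symbol among them. It was at 1.83 and 2.33 CPM in the young and old fed stem cell libraries and at 3.63 and 4.11 CPM in the fasted ones, against 51.0 CPM fed and 16.0 and 17.7 CPM fasted in the Paneth gate. Its fasted minus fed difference was 2.49 lower in Paneth cells than in stem cells on the log2 scale (SE 0.29, adjusted p = 0.00858, edgeR), at stem cell levels of a few CPM.

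For the fat oxidation genes no difference in response was shown. Pdk4 had a log2 difference of 4.75 in stem cells and 5.04 in progenitors beside 3.70 in the Paneth gate (Paneth minus stem -1.06, adjusted p = 0.37, edgeR), and Cpt1a had 1.35 and 1.13 beside 1.40 (0.05, adjusted p = 0.97). Acadl had 2.42 and 2.17 beside 1.65 (-0.78, adjusted p = 0.27). The list medians of PPAR targets were 1.77 in stem cells and 2.42 in progenitors beside 0.83 in the Paneth gate, and the difference between lists was not tested. For the amino acid response the medians were -0.04 in stem cells and 0.13 in progenitors beside -0.76, with Mthfd2 at 0.01 in stem cells (Paneth minus stem -1.11, adjusted p = 0.10, edgeR) and Slc7a11 at -0.15 (-0.91, adjusted p = 0.14). In stem cells 163 genes were called (1.06%), 0.669% higher and 0.39% lower, and in progenitors 1425 (9.26%), 5.26% higher and 4% lower. The progenitor value rests on the young fasted library whose labels disagree on cell type and diet. A missed threshold does not show that the responses are alike.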

How the data were processed

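PolyA RNA from sorted crypt cells was sequenced (TruSeq, per the labels' protocols). The authors deposited 1 table, whose values were taken for expected counts, 1 column per library and Ensembl gene, since the submitters' processing notes name RSEM and 22.96% of values are not whole. The notes also name BWA 0.7.12-r1039, STAR 2.5.3a and bedtools 2.25.0.64, and the builds mm9 and mm10 without their roles. The series text says that libraries were sequenced repeatedly and that the analysis used mm10, but how runs were merged is not given in the sources used here, nor is strand, so antisense and overlapping genes are uncertain. Symbols were matched for 32722 of 50686 identifiers, 2655 of them shared, and identifiers without one hold 6.59% of counts.

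Counts were rounded and fitted with edgeR 4.0.16 (R 4.3.3): its quasi-likelihood test (robust option), scaling by TMM, filterByExpr within populations (minimum count 10, total 15), age and diet as added terms within each population, and Benjamini-Hochberg adjustment over 15386 genes. The fit used 17 libraries, which leave 5 residual degrees of freedom, since the 5 Paneth libraries alone would leave 1. With 1 library per combination of age, diet and population, these degrees of freedom are departures from the added terms. Single libraries are assumed to vary like the rest. A gene was called at an adjusted p under 0.05. CPM are TMM-scaled, and log2 CPM used a prior count of 2. DESeq2 1.42.0 was an alternative, with other scalings, filters and sets of libraries. Code was tested on simulated data.

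Lists and compared libraries were chosen with earlier results of these data known. Genes were named by a rule: of genes with a symbol, called, averaging 3 or more in log2 CPM, and with both fasted libraries on 1 side, the 12 with the largest difference in each direction, up to 4 called members of each list with at least 2, and 28 fixed genes, 59 in all. Others named were chosen after their values were seen. Of 843 list symbols in 43 lists, 830 were matched. A few genes are not reported here; they stay in the fit and its counts over all genes and are left out of the lists and named genes.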

Additional observations from a re-analysis of the deposited data

Results flagged for a closer look

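The response to fasting differed between the Paneth gate and stem cells for 4 genes, by the test of the difference itself (edgeR, adjusted over 15386 genes). For Fkbp11 the log2 difference of the differences was -2.49. Of 3 genes that the table gives by identifier only, ENSMUSG00000100801 had -2.63 against stem cells and -2.14 against progenitors, with 48.6 CPM in the fed and 21.4 and 12.6 CPM in the young and old fasted Paneth libraries. ENSMUSG00000098557 had 1.45 against stem cells, with 171 CPM fed and 787 and 410 CPM fasted. ENSMUSG00000097142 had 1.64, with 109 CPM fed and 494 and 261 CPM fasted. Against progenitors these 2 genes had 0.46 and 0.52 and were not called (adjusted p = 0.35 and 0.30, edgeR). Their fasted minus fed differences within progenitors were 0.84 and 0.77. In stem cells these 2 were at no more than 18.2 CPM in any fed or fasted library kept.

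In data outside the comparison, Paneth products and alpha-defensins took 42.3% of the counts of the library labelled young fasted stem cells, the second of that name. The other 6 stem cell libraries held 0.205% to 0.307%.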

How the results depend on the processing

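The count of 98 genes for fasted against fed stayed within 1.5 times under DESeq2 (135, 81 of them shared), under every scaling tried and without the Paneth genes in the scaling. It was 432 with no expression filter, 64 with the 15 libraries of undisputed label, 379 with the 5 Paneth libraries alone, 59 with no age term and 0 with the 2 fasted and 1 fed libraries alone, where edgeR gave 1201 genes an unadjusted p under 0.05. Leaving out 1 Paneth library at a time gave 14 to 36 genes. For fasted against refed (2540 genes) DESeq2 gave 1625, and leaving out 1 library gave 433 to 728. For the Paneth against the stem response (4 genes) the count was 16 by DESeq2, 11 with library totals, 173 with no filter, 1 with the undisputed libraries, 0 with no age term (edgeR, 1185 at an unadjusted p under 0.05) and 1 to 4 with 1 library left out. Against progenitors (1 gene) it was 57 by DESeq2, 5 with RLE factors, 7 with upper-quartile factors, 333 with no filter, 2 with the undisputed libraries, 0 with no age term (edgeR, 1347 at an unadjusted p under 0.05) and 1 to 3 with 1 library left out. Where a fit has fewer libraries or genes, its construction changes the count, and otherwise the cause was not tested.

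Some genes that were not called changed sign. With library totals, an alternative chosen after seeing the data, Lyz1 was at 0.042, Itln1 at 0.18 and Lgr5 at 0.063. With no age term Wnt3 was at -0.0061 and Bst1 at 0.17. With the 3 libraries alone Itln1 was at 0.0075 and Bst1 at 0.21. With 1 library left out Lyz1 ran from -0.30 to 0.14 and Itln1 from -0.14 to 0.23, each positive without the old fasted library. Of 37 named genes called, 18 lost their calls with no age term, 20 without the young and 30 without the old fasted library. No paired analysis was possible because the labels number no replicates and each group of Paneth cells has 1 library. With 1 fed library, differences cannot be told apart from what is particular to it. Genes of few counts have little precision at these depths.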

Other observations

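The following genes, called for fasted against fed and held by no list, were picked after their values were seen. Lamb3, a laminin chain, was at 29.8 CPM fed and 70.9 and 59.2 CPM fasted (1.07, adjusted p = 0.021, edgeR), and Mmp15, a membrane-bound protease, at 88.6 CPM fed and 117 and 148 CPM fasted (0.74). Lgmn, the lysosomal protease legumain, was at 154 CPM fed and 237 and 351 CPM fasted (1.11), and Scarb2, a lysosomal membrane protein, at 65.0 CPM fed and 135 and 123 CPM fasted (0.97). For Lamb3 and Lgmn the young and old refed libraries stood higher than the fasted ones, at 72.5 and 74.5 CPM and at 372 and 440 CPM. For Mmp15 they were slightly below the fasted library of the same age, at 115 and 143 CPM. For Lamb3, Mmp15 and Lgmn the fed library was thus the lowest of the 5. Fbln1, a matrix protein, was at 67.9 CPM fed and 45.8 and 37.6 CPM fasted (-0.86), and Tmsb4x, which binds actin monomers, at 316 CPM fed and 224 and 185 CPM fasted (-0.83).

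Klf11, a transcriptional regulator, was at 10.8 CPM fed, 28.8 and 26.5 CPM fasted, and 5.97 and 5.98 CPM refed (1.31, adjusted p = 0.0265, edgeR). The fasted libraries were alike and above all others.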
